A study of Homo sapiens with 3 samples.

Results

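The regions described here are the 236 best-ranked of 2356 SP1 regions called in H1299 cells, those with rank 1 to 236. They were chosen by the authors' rank in the SP1 library. A region is a peak, or several neighbouring peaks joined into 1 stretch, and the authors ranked the regions within the SP1 library, with rank 1 the best. The signal behind the rank is not in their list. H1299 is an established human non-small cell lung cancer line, labelled as lung adenocarcinoma cells, and the labels name no treatment and no genetic change. The cells were profiled by CUT&RUN, in which an antibody tethers a nuclease to its target in nuclei and the DNA released around the target is sequenced. There were 3 libraries, made with antibodies to SP1 and to histone H3 acetylated at lysine 27 (H3K27ac), and with a control IgG that was not analysed here. As each antibody had 1 library and no replicate, no p-values are given, and the intervals below cover counting error only.

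SP1 is a zinc finger transcription factor that binds GC-rich DNA elements called GC boxes, which are common at the promoters of housekeeping and growth genes. H3K27ac is laid down by the acetyltransferases p300 and CBP and marks active promoters and enhancers. Joining neighbouring peaks and ranking the joined stretches by their summed signal is the usual way in which super-enhancers, long and strongly marked enhancer clusters, are listed.

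The best-ranked regions reached into few promoters. A transcription start of the RefSeq promoter table (GRCh38.p14) lay inside 8 of the 236 regions, at 8 genes. None of the other 2120 SP1 regions held one, which allows a share of up to 0.142%. Of the 8, only the regions at ROBO3 and PISD were single peaks. All of the other 2120 were single peaks of at most 506 bases, so length enters this contrast. The whole list also held few summits near starts, as given below. A GC box, searched as GGGCGG on either strand (CCGCCC is its reverse complement, and overlapping matches were each counted), occurred in 5 of the 8 promoters, or 62.5% (95% Wilson interval 30.6 to 86.3). It occurred in 12493 of the table's 22199 protein-coding promoters, or 56.3% (55.6 to 56.9), and in 65.8% of those on chromosome 19. The share at the 8 starts therefore lay within counting error of both. The promoters shown are those of the regions ranked 1, 2 and 20, which had the best ranks of any region holding the start of a gene with an established name, and those of the 2 regions of a single peak whose summit was within 100 bases of a start, chosen after their values were seen. Each runs from 250 bases before to 50 bases after the start, 5′ to 3′ on the gene's strand, with GC boxes in capitals. A match is a description of the letters and not a site shown to be bound.
SERTAD1, rank 1, 5 boxes, chr19:40425943-40426242, minus strand:
SERTAD1: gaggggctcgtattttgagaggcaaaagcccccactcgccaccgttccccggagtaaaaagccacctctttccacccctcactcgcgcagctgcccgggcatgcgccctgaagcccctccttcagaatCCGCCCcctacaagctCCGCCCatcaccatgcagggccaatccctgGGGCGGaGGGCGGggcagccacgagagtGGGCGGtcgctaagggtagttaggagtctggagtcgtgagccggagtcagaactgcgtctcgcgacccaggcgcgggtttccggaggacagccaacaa
ERCC1, rank 2, no box, chr19:45451498-45451797, minus strand:
ERCC1: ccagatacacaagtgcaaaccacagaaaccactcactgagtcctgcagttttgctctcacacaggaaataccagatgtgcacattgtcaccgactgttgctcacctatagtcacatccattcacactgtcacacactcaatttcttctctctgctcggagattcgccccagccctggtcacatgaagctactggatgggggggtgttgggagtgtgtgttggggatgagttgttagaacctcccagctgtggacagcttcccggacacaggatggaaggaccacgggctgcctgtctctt
ZNF865, rank 20, 4 boxes of which a pair overlap, chr19:55605397-55605696, plus strand:
ZNF865: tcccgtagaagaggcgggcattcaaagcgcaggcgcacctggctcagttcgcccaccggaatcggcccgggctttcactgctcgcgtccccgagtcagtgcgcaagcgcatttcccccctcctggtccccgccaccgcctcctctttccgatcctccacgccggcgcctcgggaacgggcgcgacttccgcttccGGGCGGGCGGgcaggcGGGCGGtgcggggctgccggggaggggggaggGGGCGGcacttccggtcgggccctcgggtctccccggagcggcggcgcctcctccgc
ROBO3, rank 138, 1 box, chr11:124875932-124876231, plus strand:
ROBO3: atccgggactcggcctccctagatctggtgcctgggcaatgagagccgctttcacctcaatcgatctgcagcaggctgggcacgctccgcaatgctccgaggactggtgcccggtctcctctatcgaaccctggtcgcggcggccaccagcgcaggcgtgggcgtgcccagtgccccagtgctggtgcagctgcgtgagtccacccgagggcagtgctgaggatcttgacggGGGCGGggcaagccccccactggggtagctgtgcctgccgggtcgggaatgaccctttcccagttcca
PISD, rank 159, 2 boxes, chr22:31662166-31662465, minus strand:
PISD: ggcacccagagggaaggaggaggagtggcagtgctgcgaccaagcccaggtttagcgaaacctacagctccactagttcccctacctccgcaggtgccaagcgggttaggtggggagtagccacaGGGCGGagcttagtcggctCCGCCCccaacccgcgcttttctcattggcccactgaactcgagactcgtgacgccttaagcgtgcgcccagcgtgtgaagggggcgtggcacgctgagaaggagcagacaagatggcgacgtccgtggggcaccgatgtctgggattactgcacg

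SERTAD1, a co-regulator of E2F-dependent transcription that also binds the cell cycle kinase CDK4, had its nearest SP1 summit 151 bases downstream of the start, with a score of 10.3. A summit is the single base at which a peak is highest, and its score is −log10 of the p-value or the q-value of the peak (which of these is not stated). The SERTAD1 region also held summits at 285 bases upstream (score 22.8), 4874 bases downstream (12.3) and 7224 bases upstream (6.43). ERCC1, the partner of the XPF nuclease in nucleotide excision repair, had a summit 883 bases downstream of the start (16), 1 at 8441 bases downstream (13.5) and 1 at 4605 bases upstream (10.3). These 2 regions were the only ones of the 236 that held more summits than the number of joined peaks in their names. In both, the summits beyond that number were nearer to the start than the 2 outer ones. In ZNF865, a zinc finger gene, the nearest summit was 562 bases downstream of the start and scored 11.4. ROBO3, an axon guidance receptor gene, had its summit 62 bases downstream of a start inside the gene (9.60), and its region was 4770 bases from the nearest end of the gene span. PISD, which encodes the mitochondrial phosphatidylserine decarboxylase, had its summit 98 bases downstream of a start (7.91). ERCC1, ROBO3 and PISD have further starts in the table.

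The other 3 starts were at LOC124902669 (rank 23), RTF2 (rank 44) and ZNF875 (rank 58). RTF2, which takes part in replication termination, had 5 boxes and its nearest summit 5534 bases downstream of the start. LOC124902669 and ZNF875 had no box, with summits 119 and 377 bases downstream.

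The low number of starts applied to the SP1 region list as a whole. Of 2448 SP1 summits within 2500 bases of a start in the table, chromosome 8 left out, 17 lay in the best-ranked regions and 22 in any SP1 region, which is 0.899% (0.594 to 1.36). Of the 2789 summits farther from a start, 297 lay in the best-ranked regions and 2223 in any region, or 79.7% (78.2 to 81.2). The summits near starts were not weak, with a median score of 8.13, against 5.26 farther away. Every position given below is thus a position within a list that left out most SP1 summits near known starts.

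The best-ranked regions were long, and the rank comes from the same SP1 library, so their length, peak number and SP1 scores describe the choice and support nothing. Their median length was 516 bases, with quartiles of 386 and 1544 and a range of 208 to 24828, against a median of 210 bases (199 to 506) in the other 2120. They covered 564 kb against 507 kb in the others, or 52.7% of all bases in SP1 regions. A single peak made up 155 of them, 70 joined 2 peaks, 8 joined 3 and 3 joined 4. These 81 joined regions were all the joined regions in the list (3.44% of the 2356), the worst of them at rank 172. The median length was 5896 bases in joined regions and 423 bases in those of 1 peak. Among the 30 best-ranked, 24 were joined.

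Height alone did not set the order. The highest summit in a region had a median score of 8.86 (quartiles 6.56 and 13.5, range 3.08 to 268), against 4.90 in the other SP1 regions, whose highest was 15.8. Joined regions had a lower median, 7.51, than regions of 1 peak, 9.38, and 11 joined regions had no summit above 5. Over all 2356 regions, rank correlated with length at a Spearman coefficient of -0.790 and with the highest score at -0.378. CPNE8, a copine gene, is an example of a long region with low summits, at rank 22 with 8396 bases and scores of 4.22 and 3.68. The region between genes on chromosome 1 at rank 6 is the reverse, with 386 bases and a score of 268.

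**Figure D1:**
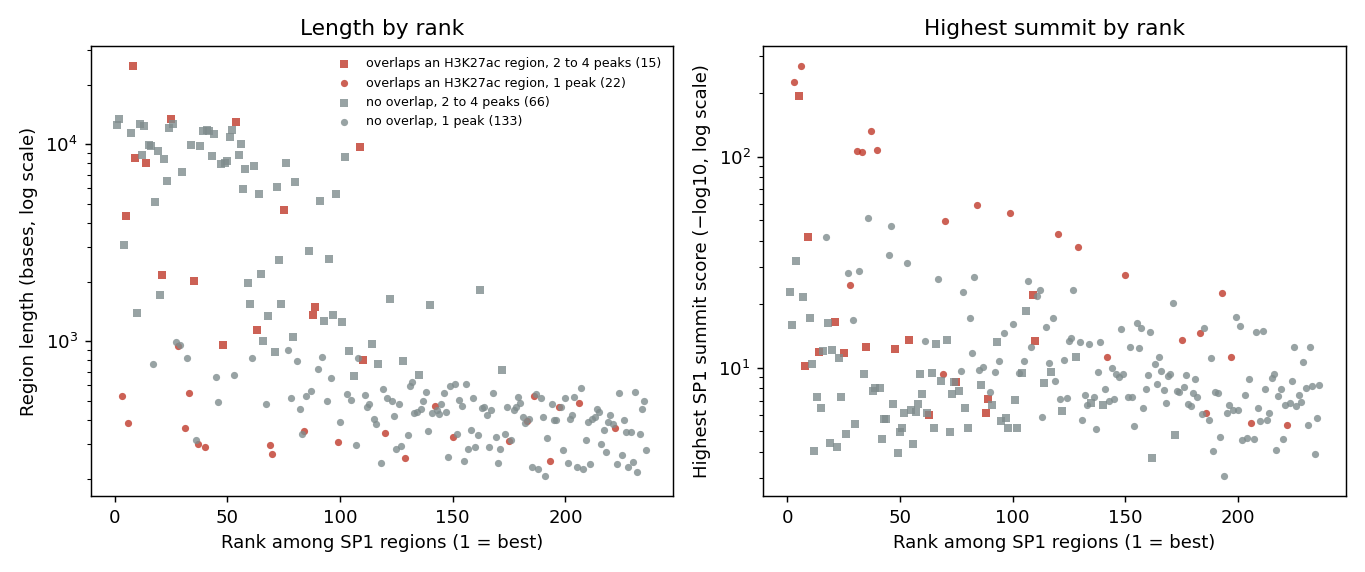
Length in bases (left, log scale) and highest SP1 summit score (−log10, right, log scale) of each of the 236 regions against rank. Squares are regions of 2 to 4 joined peaks and circles regions of 1 peak, and red marks the 37 that overlap an H3K27ac region. The longest region has 24828 bases, the 81 joined regions end at rank 172, and the highest score of 268 is at a region of 1 peak.

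The limit at rank 236 fell within a continuous range. The 5 regions just inside it had, in order of rank, lengths of 217, 338, 452, 496 and 282 bases and scores of 12.5, 8.16, 3.90, 5.81 and 8.26, and were in or nearest to PRSS36, LOC124904970, CNBD1, LYST and DYNC1H1. The 5 just outside had, in order of rank, lengths of 440, 284, 271, 409 and 468 bases and scores of 5.35, 4.73, 11.8, 4.34 and 7.07, in or nearest to GDF11, LRFN3, ARHGEF19, RNF144A and NFIC.

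The next comparison asked how the regions lie relative to genes. A gene end is here either end of a protein-coding gene's span in the RefSeq gene table of the same assembly, and exons and introns cannot be read from spans. Genes named as nearest to a region are likewise protein-coding, and genes of other kinds can lie nearer. Within 1000 bases of a gene end lay 31 of the best-ranked regions, or 13.1% (9.41 to 18.0), and 36 of the other 2120, or 1.70% (1.23 to 2.34). The background over all SP1 regions was 2.84%. The difference was 11.4 percentage points (Newcombe 95% interval 7.66 to 16.4). A gene end lay inside 16 of them (6.78%) against 3 of the others (0.142%). Length enters these shares, since a long stretch reaches more genes: in regions of 1 peak the share within 1000 bases was 9.03%, in 14 of 155. By the region's midpoint it was 9.32%.

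Most of these 31 regions were at the 3′ side of genes. The nearest end was the 3′ end in 18, the start in 7, both ends of 1 gene in 2, and of a gene with no strand in the promoter table in 4. In the other SP1 regions it was the 3′ end in 28 of 36 and the start in 2. The scarcity of summits near starts in the whole list, given above, stands beside this count, and its part in it was not tested. In the following sentences genes beyond rank 30 were chosen after their values were seen.

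At rank 4, a region of 3085 bases in PRR36 had summits of 32.1 and 8.83 and ended 287 bases from the 3′ end of the gene. At rank 10, 1400 bases covered the 3′ end of ETV2, an ETS factor gene of blood and endothelial development, with summits of 17.3 and 10.2. The 3′ end of TRUB2, which encodes a mitochondrial RNA pseudouridine synthase, lay in a region of 12381 bases at rank 13 with summits of 7.28 and 3.87. EFNA3, an ephrin ligand gene, and the readthrough gene EFNA4-EFNA3 shared a region of 9761 bases at rank 16 (12.0 and 3.05). GPR84, a receptor gene for medium-chain fatty acids, and ZNF385A had ends in the region at rank 15 (6.42 and 4.52). At PRR36 and EFNA3 the higher summit stood well above the other, and at GPR84 the 2 were closer.

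Among regions of 1 peak, the 3′ ends of SLC8A2, a sodium-calcium exchanger gene, PHLDB3 and NRTN, which encodes the growth factor neurturin, lay inside regions with scores of 9.54, 13.2 and 11.2. RTN2, a reticulon gene, was 354 bases away with a score of 16.3, and CNFN 231 bases away with 11.7. Starts were nearest at PRRC2B (39 bases, score 10.9), PISD (38 bases, 7.91) and MRPL34, a mitochondrial ribosomal protein gene (14 bases, 14.8). SLC2A1, the glucose transporter gene GLUT1, had a joined region 726 bases from its 3′ end with scores of 5.80 and 4.46.

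Farther out, 21 regions (8.90%) lay over 1000 and up to 2500 bases from a gene end, against 56 (2.64%) of the others. A further 70 (29.7%) lay over 2500 and up to 10000 bases away, against 318 (15%). In all, 122 of 236 were within 10 kb, or 51.7% (45.3 to 58.0), against 19.3% (17.7 to 21.1) of the others, a difference of 32.4 points (25.8 to 38.9). Measured from the highest summit to the nearest start, over the 224 regions not on chromosome 8, for which the table gave starts, 40 (17.9%) had it 2.5 to 10 kb upstream, against 6.01% of the others, and 27 (12.1%) 2.5 to 10 kb downstream, against 5.23%. Only 12 (5.36%) had it within 2.5 kb, against 5 of 1931 (0.259%).

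The share inside genes did not set the regions apart. A protein-coding gene span was overlapped by 108, or 45.8% (39.5 to 52.1), against 41.5% (39.4 to 43.6) of the others and 41.9% of all, a difference of 4.25 points whose interval, -2.33 to 11.0, holds 0. No gene of any kind in the table was touched by 103 regions (43.6%), against 955 of the others (45.0%) and 44.9% of all, a difference of -1.40 points (-7.93 to 5.32). A gene of a long noncoding RNA was touched by 30 (12.7%), against 322 of the others (15.2%) and 14.9% of all, a difference of -2.48 points (-6.47 to 2.59). Both intervals hold 0. Over 1000 kb from a gene end lay 10 of the 236 (4.24%), against 45 of the others (2.12%) and 2.33% of all, a difference of 2.11 points (0.0694 to 5.54). Of these 10, 4 lay within 390 kb of each other on chromosome 20. The interval counts each region as separate, so this larger share rests on few places.

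Transfer RNA genes, which RNA polymerase III transcribes, were touched by 2 of the 236 regions (0.847%) and by none of the other 2120, which allows a share of up to 0.142%, with 0.0849% over all SP1 regions. The region of 12730 bases at rank 11 on chromosome 5 held TRV-AAC1-2, TRV-AAC1-3 and TRV-CAC1-4. That of 9754 bases at rank 38 on chromosome 11 held TRP-AGG2-4 and TRP-TGG2-1. Both are joined regions, and none of the other 2120 was longer than 506 bases, so length enters this contrast. The distance from their summits to these genes was not measured.

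**Figure D2:**
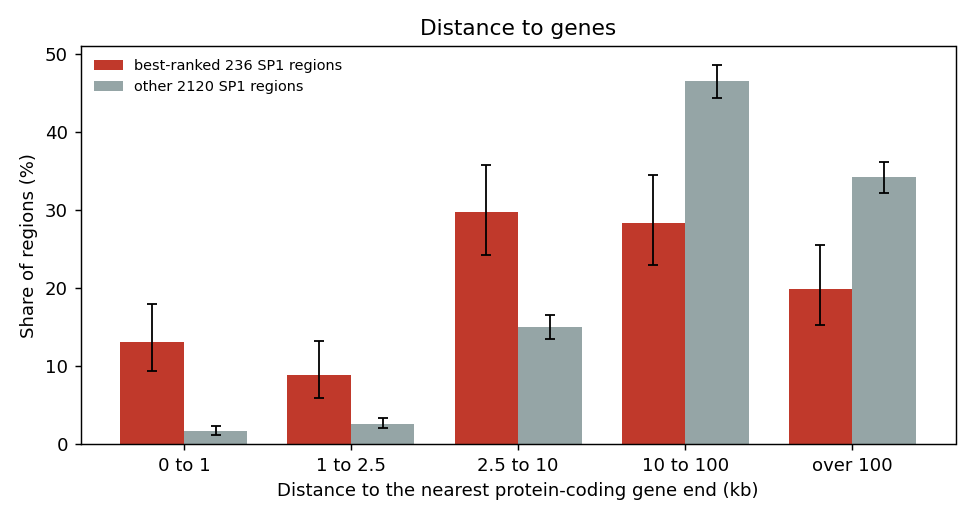
Share of regions (%) by distance in kb to the nearest protein-coding gene end, for the 236 best-ranked SP1 regions (red) and the other 2120 (grey), with 95% Wilson intervals. Up to 10 kb the best-ranked regions have the larger shares, with 29.7% against 15% at 2.5 to 10 kb, and at 10 to 100 kb and over 100 kb the other regions do, the best-ranked having 19.9% against 34.2% at over 100 kb.

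Chromosome 19 held 53 of the best-ranked regions, or 22.5% (17.6 to 28.2), and 72 of the other 2120, or 3.4% (2.71 to 4.26), with 5.31% over all SP1 regions. The difference was 19.1 points (14.1 to 24.8). The chromosome carries 7.24% of protein-coding genes and 11.3% of SP1 summits. Of its 125 SP1 regions, 42.4% (34.1 to 51.2) were among the best-ranked 236, against 8.20% (7.13 to 9.41) of SP1 regions on other chromosomes. Among the best-ranked regions of 1 peak, 39 of 155 (25.2%) were on chromosome 19, and among the joined ones 14 of 81.

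The regions on chromosome 19 lay close to genes. Of the 53, 43 (81.1%) were within 10 kb of a gene end, against 49 of the 72 other SP1 regions there (68.1%), a difference of 13.1 points (-2.69 to 27.2). A gene span was overlapped by 40 (75.5%), against 54.2%, a difference of 21.3 points (4.24 to 36.2). On other chromosomes 43.2% of the best-ranked regions were within 10 kb. Within 1000 bases of a gene end were 16 of the 53 (30.2%, 19.5 to 43.5), against 8 of the other 72 (11.1%, 5.74 to 20.4), a difference of 19.1 points (4.92 to 33.5). None was over 100 kb away, which allows a share of up to 5.66%, against 2 of the other 72 (2.78%, 0.765 to 9.57). This count did not set the best-ranked regions apart. The median of the highest score was 12.5 in the regions on chromosome 19 and 8.04 in the best-ranked regions elsewhere.

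Named regions of the chromosome were of both kinds, joined and single. LTBP4, which encodes a binding protein of latent TGF-beta in the matrix, held a region of 11338 bases and 4 joined peaks at rank 7, its highest summits 21.6 and 13.8. FBXO46, an F-box gene, held a region at rank 18 (16.3 and 9.26), and SMG9, of nonsense-mediated mRNA decay, one at rank 19 (4.42 and 3.94). The cyclin E1 gene CCNE1 was nearest to a region of 1 peak at rank 29 with a score of 16.8, 20248 bases from its 3′ end. Single peaks of high score that were picked after their values were seen were in or nearest to FSTL3, which encodes a follistatin-like inhibitor of activins (51.2), PPFIA3 (46.9), ZNF77 (34.1), the erythropoietin receptor gene EPOR (31.4), CATSPERG (28.8) and the actinin gene ACTN4 (26.4). Of the chromosome's 250 ZNF genes, its large zinc finger family, 6 had a best-ranked region within 10 kb of an end (2.40%), against 73 of 1201 other protein-coding genes of the chromosome (6.08%).

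In percentage points, the other chromosomes differed less. Chromosome 17 held 27 regions, or 11.4% (7.98 to 16.1), against 3.25% of the others, a difference of 8.19 points (4.63 to 12.9). Chromosome 21 held 5 of the 12 SP1 regions on it and chromosome X 6 of 14. Chromosomes 2, 3, 5 and 6 held 7, 3, 8 and 11 regions, each below the share of the other SP1 regions there (2.97% against 8.07%, 1.27% against 6.27%, 3.39% against 8.25% and 4.66% against 9.62%). Chromosome 18 had none of the 236, which allows a share of up to 1.27%, against 53 of the others (2.5%). A best-ranked region lay on 22 of the chromosomes.

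**Figure D3:**
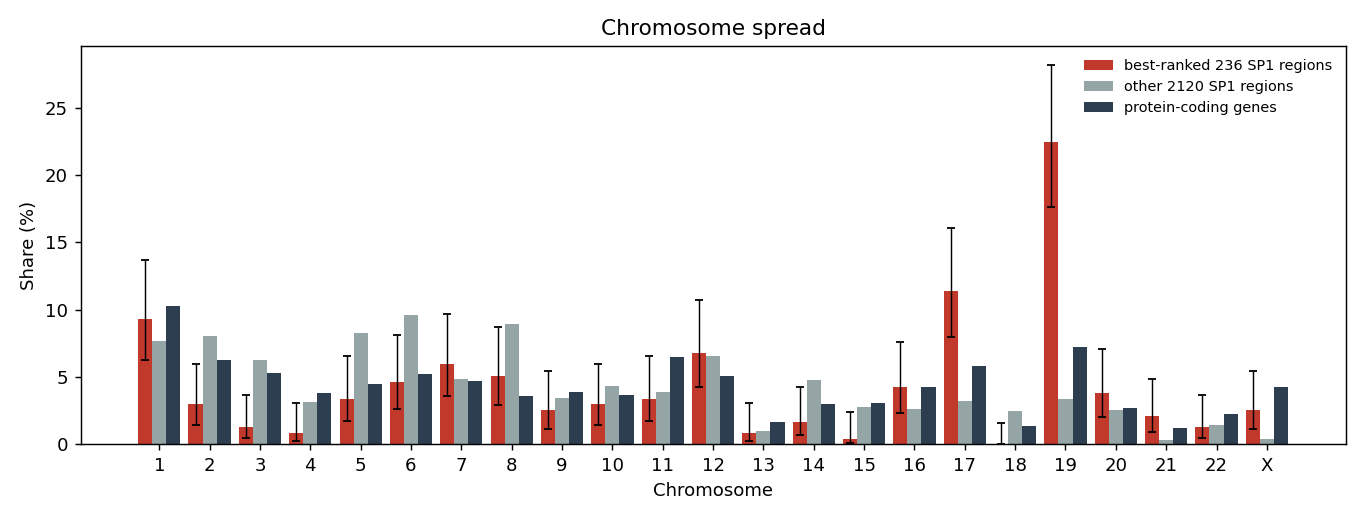
Share (%) of the 236 best-ranked SP1 regions (red, with 95% Wilson intervals), of the other 2120 SP1 regions (grey) and of protein-coding genes (dark blue) on each chromosome. Chromosome 19 holds 22.5% of the best-ranked regions, 3.4% of the other regions and 7.24% of genes.

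The last comparison asked whether the regions carried H3K27ac, which was measured in another library. An H3K27ac region overlapped 37 of the 236 by at least 1 base, or 15.7% (11.6 to 20.9), against 42 of the other 2120, or 1.98% (1.47 to 2.67). The background over all SP1 regions was 3.35%. The difference was 13.7 points (9.56 to 18.9). In the next 236 SP1 regions by rank the share was 3.81% (2.02 to 7.09), and in the last of 10 such groups it was 0.431% (0.0761 to 2.40). The other 199 best-ranked regions, among them the 2 best, overlapped none.

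The share was 14.2% in regions of 1 peak and 18.5% in joined ones. Among regions of at least 326 bases, a limit added after the data were seen, it was 12.1% (7.33 to 19.2) in best-ranked regions of 1 peak and 1.52% (0.519 to 4.38) in the other SP1 regions. With an upper limit of 506 bases as well, the length of the longest other region, it was 13.3% (7.41 to 22.8) in 75 best-ranked regions of 1 peak, with a median length of 422 bases, against 3 of 197 others, with a median of 363 bases. Counted per base, the best-ranked regions held 48 H3K27ac summits, or 0.851 per 10 kb (exact Poisson interval 0.628 to 1.13), against 30, or 0.592 per 10 kb (0.399 to 0.844), in the others, a ratio of 1.44 whose exact interval, 0.893 to 2.35, holds 1. Those of 1 peak held 3.22 per 10 kb (2.02 to 4.88), a ratio of 5.45 (2.99 to 9.76) to the others, and the joined ones 0.525 (0.343 to 0.769).

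**Figure D4:**
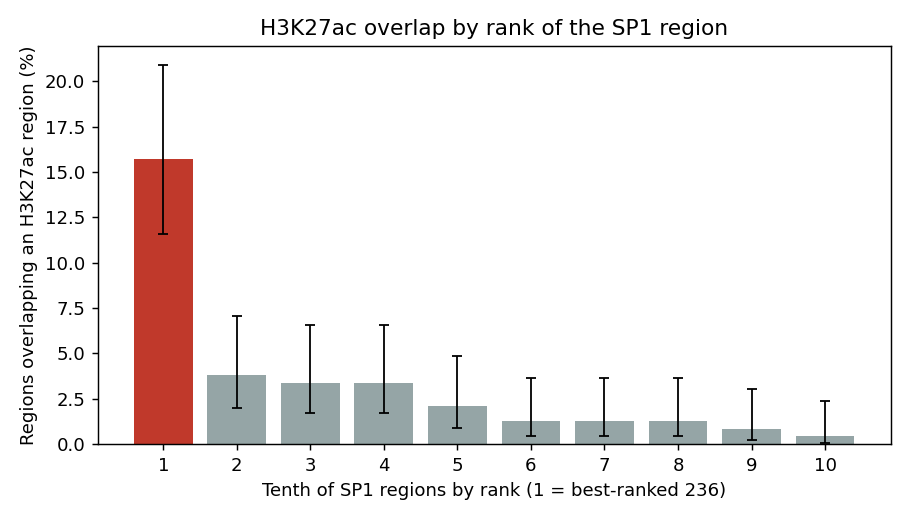
Share (%) of SP1 regions that overlap an H3K27ac region in 10 groups by SP1 rank, the best-ranked 236 (red) first, with 95% Wilson intervals. The share is 15.7% in the best-ranked group, 3.81% in the next and 0.431% in the worst-ranked.

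The overlapping regions were mostly far from protein-coding genes. Over 100 kb from any protein-coding gene end lay 47 of the 236, or 19.9% (15.3 to 25.5), against 725 of the other 2120, or 34.2% (32.2 to 36.2), and 32.8% of all SP1 regions. With genes of every kind counted, 19 of the 236 (8.05%) lay that far from a gene end. Some of the 47 thus had a gene of another kind within 100 kb. Of these 47, 26 overlapped an H3K27ac region, or 55.3% (41.2 to 68.6), against 18 of 725 others at that distance (2.48%, 1.58 to 3.89), a difference of 52.8 points (38.7 to 66.1). Within 100 kb of a gene end, 11 of 189 overlapped, or 5.82% (3.28 to 10.1), against 24 of 1395 others (1.72%, 1.16 to 2.55), a difference of 4.10 points (1.43 to 8.44). Over 1000 kb from a gene end, 8 of 10 overlapped (80.0%, 49.0 to 94.3), against 7 of 45 others (15.6%, 7.75 to 28.8), a difference of 64.4 points (30.8 to 80.8). These 10 include 4 neighbours within 390 kb on chromosome 20, which the interval counts as separate. On chromosome 19, 1 of 53 did (1.89%, 0.334 to 9.94), against 1 of 72 others (1.39%, 0.246 to 7.46), so no difference was detectable there.

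Where both SP1 and H3K27ac were called, their summits lay close together and scores were alike in order. In the 37 regions, the nearest H3K27ac summit was a median of 31 bases from the highest SP1 summit (0 to 1371), and within 100 bases in 30 of them. These regions were picked for overlapping an H3K27ac region, and the 22 of 1 peak had a median length of 358 bases. That choice itself favours short distances, so the distances are a description only. In the 42 other SP1 regions that overlapped an H3K27ac region, the median distance was 53.5 bases. Closeness was thus not particular to the best-ranked regions. The 36 regions with an H3K27ac summit inside had a median highest H3K27ac score of 15.1 (5.40 to 275). Over these 36 the highest SP1 and H3K27ac scores had a Spearman correlation of 0.929, across regions of 2 libraries from 1 cell line. The H3K27ac score was the higher in 18 of 26 regions over 100 kb from a gene end and in 2 of 10 nearer ones. In the 26 distant regions the medians were 23.5 for SP1 and 24.8 for H3K27ac. Whether these positions also score with the control IgG, a library not analysed here, was not tested. Repeat content and the unique placement of reads there were not tested either. The overlap is therefore not read here as marking distant enhancers.

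**Figure D5:**
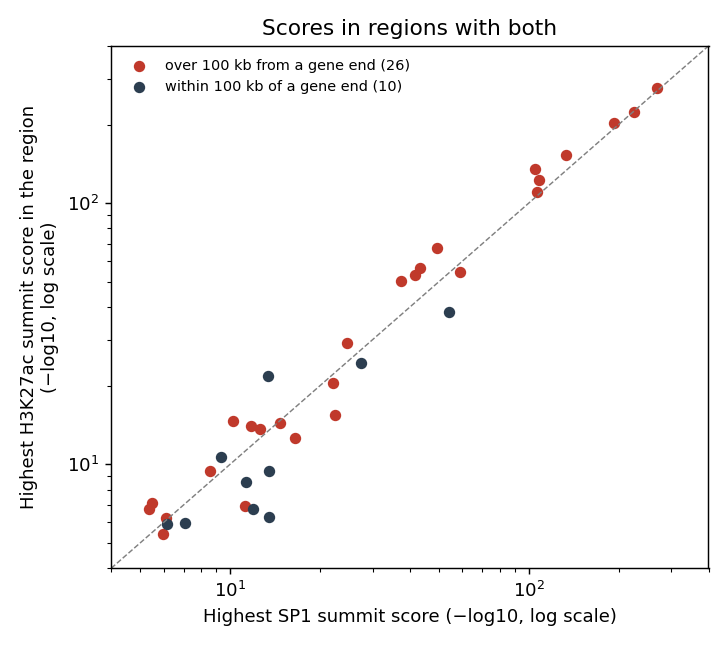
Highest H3K27ac summit score against highest SP1 summit score (both −log10, log scales) in the 36 best-ranked SP1 regions with summits of both libraries. Red marks 26 regions over 100 kb from a protein-coding gene end and dark blue 10 nearer ones, and the dashed line marks equal scores. The points run along the line from about the lowest H3K27ac score of 5.40 to the highest of 275.

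The highest-scoring regions were of this kind. Of 10 best-ranked regions with an SP1 score above 50, 9 overlapped an H3K27ac region, and the exception was the one at FSTL3. Of 25 with a score of 20 to 50, 8 overlapped and 11 were on chromosome 19. The region at rank 6 on chromosome 1 scored 268 for SP1 and 275 for H3K27ac, whose own rank there was 1. The region at rank 3 on chromosome 16 scored 226 for SP1 and 224 for H3K27ac (H3K27ac rank 2). SHCBP1, its nearest protein-coding gene, was 187677 bases away, and the nearest end of a gene of any kind was 78423 bases away.

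On chromosome 17, 4 overlapping regions lay within 965 kb of each other. WSB1, a gene of a ubiquitin ligase subunit, was the nearest protein-coding gene of each, at 408563 to 1373755 bases. The SP1 scores of these regions were 193, 133, 108 and 37.3, and their H3K27ac scores 202, 153, 123 and 50.3, in the same order. Chromosome 20 had 4 best-ranked regions within 390 kb, at ranks 8, 28, 84 and 233, of which the first 3 overlapped. The longest region of all, 24828 bases and 4 joined peaks at rank 8, was one of them, with highest scores of 10.2 for SP1 and 14.6 for H3K27ac. At rank 9, on the same chromosome, 8519 bases had scores of 41.5 and 53.0, with the defensin gene DEFB115 188787 bases away. On chromosome 21, 3 neighbouring regions at ranks 33, 35 and 183 scored 105, 12.6 and 14.7 for SP1 and 135, 13.6 and 14.4 for H3K27ac.

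Further overlapping regions between protein-coding genes were at ranks 14 (chromosome 21, 11.9 for SP1 and 6.75 for H3K27ac, nearest gene LOC102724560), 21 (chromosome 10, 16.5 and 12.6, ZNF37A at 376978 bases), 25 (chromosome 22, 11.8 and 14.0, OR11H1 at 3595934 bases) and 31 (chromosome 16, 107 and 110, LOC124903767 at 198187 bases). Their H3K27ac ranks were 56, 39, 17 and 29. The regions at ranks 14 and 25 each touched a long noncoding RNA gene. Of the 37 overlapping regions, 34 met an H3K27ac region of rank 271 or better. From the other side, 6 of the 10 best H3K27ac regions and 34 of the best 271 (12.5%, 9.12 to 17.0) overlapped a best-ranked SP1 region, against 3 of the other 2439 (0.123%, 0.0418 to 0.361).

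Overlap inside protein-coding genes was rare, 6 of 108 regions (5.56%, 2.57 to 11.6) against 10 of 880 others (1.14%, 0.618 to 2.08). At rank 54 a region of 13023 bases and 3 joined peaks in FCGBP, a gene of a mucus protein, scored 13.5 for SP1 and 9.47 for H3K27ac, and it was the one overlap on chromosome 19. At rank 48, in TOM1L2, an endosomal sorting gene, the SP1 score was 12.3, the H3K27ac region covered 30.3% of the SP1 region and no H3K27ac summit lay inside. The other 4, chosen after their values were seen, were in PCBD2 at rank 69 (9.30 for SP1 and 10.7 for H3K27ac), KCNJ12 at rank 89 (7.08 and 5.95), PHF20 at rank 142 (11.3 and 8.53) and ANAPC11, of the anaphase-promoting complex, at rank 175 (13.5 and 6.29). At KCNJ12 the H3K27ac region, of H3K27ac rank 2450, covered only 10.7% of the SP1 region. The H3K27ac summit there was 1321 bases from the highest SP1 summit. The PCBD2 region lay on MTND5P11, a nuclear copy of a mitochondrial gene, and KCNJ12 has a near-identical copy, KCNJ18, so reads could have been placed at either copy and both are uncertain. KCNJ18 was itself the gene nearest to an overlapping region at rank 63, with scores of 5.97 for SP1 and 5.40 for H3K27ac.

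Of the 30 best-ranked regions, 9 overlapped an H3K27ac region and 21 did not. Those not yet named lay as follows. At rank 17 a single peak of 41.8 was 1749 bases from CD248, which encodes the stromal surface protein endosialin. At rank 27 one of 28.1 lay in DLG4, the gene of the synaptic scaffold PSD-95, 2040 bases from the start of ACADVL, which encodes the very long-chain acyl-CoA dehydrogenase. The region at rank 24 was 8167 bases from the start of EPHA2, an ephrin receptor gene (7.28 and 4.50), and rank 30 was 901949 bases from ALG10B, of N-glycosylation (5.43 and 5.02). Ranks 12 and 26 were on chromosome 8, nearest to LOC124902048 (4.03 and 3.70) and to the peroxisome gene PEX2 at 452847 bases (4.87 and 4.50). Rank 11, on chromosome 5, was 1937 bases from the olfactory receptor gene OR2V2 (10.4 and 5.18). Regions of 3 peaks were also nearest to or in CFAP126 (rank 34), KLRD1 (rank 52), SH2D3C (rank 59) and, with H3K27ac, BPNT2 (rank 75), and their highest scores were 9.35, 6.13, 9.33 and 8.56.

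Counted by gene, an end of 36 of 20037 protein-coding genes lay within 1000 bases of a best-ranked region (0.180%), 193 within 10 kb (0.963%) and 992 within 100 kb (4.95%). Gene lists chosen with earlier results of these data known were read against these shares, as counts without a test. Of 20 textbook SP1 targets, none was within 1000 bases, 1 within 10 kb and 2 within 100 kb. These were SP1 itself, 8901 bases from the region at rank 180, and TK1, the thymidine kinase gene, at 33476 bases. Of 26 SP and KLF family genes, SP1 was the only one within 10 kb, and SP7 (25996 bases) and KLF1 (77966 bases) were within 100 kb. Of 18 immediate-early and AP-1 genes, IER2 was 7860 bases from the region at rank 160 and FOSB 10469 bases from that at rank 155.

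Of 20 genes of the SERTAD family and the E2F and cell cycle pathway, SERTAD1 lay in the region at rank 1 and its relative SERTAD3 7462 bases from it, and CCNE1 made the third within 100 kb. Of 20 nucleotide excision repair genes, ERCC1 lay at the region at rank 2, with ERCC2 at 72441 bases from it. The kinase gene CDK9 (43068 bases) was the one of 18 super-enhancer coactivator genes within 100 kb, ARID1A (74579 bases) the one of 25 lung adenocarcinoma genes and RGS14 (82999 bases) the one of 21 RGS family genes. For the lists with no gene within 1000 bases, a count of 0 allows a share of 11.5% to 16.7%, above the 0.180% of all genes.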

How the data were processed

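Per the labels, CUT&RUN libraries of H1299 cells were made with 1 antibody each. For SP1 and H3K27ac the authors deposited peak summits, whose score is a −log10 p-value or q-value (lowest 3.00 for SP1), and regions with a rank, a score without unit whose underlying signal is not in the list. Item names have the form MACS and ROSE write. The submitters' processing notes name hg38, cutadapt 2.5 and deepTools 3.4.1. The sources used here do not give the aligner, caller, settings or control, and depth is unknown. Regions were compared in Python 3.11.15 with pandas 2.3.3, by overlap of at least 1 base, checked with bedtools 2.31.1 and tested on simulated data. Intervals cover 95%: Wilson (SciPy 1.17.1), Newcombe (statsmodels 0.14.6) and exact Poisson, with the exact conditional interval for a ratio of rates. The limit for a count of 0 uses 3 counts. Genes and promoters are RefSeq's (GRCh38.p14), and promoters were listed for 15843 of 20037 protein-coding genes. Named genes are, for ranks 1 to 30, for overlapping regions up to 15 and for regions of 3 or more peaks, those with an end inside, else holding, else nearest, and list members within 1000 bases. Regions and lists were chosen with earlier results of these data known. GC boxes were searched in promoters, not in the regions, as no genome sequence was used here. Some genes that these rules or choices name are not reported here.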

Additional observations from a re-analysis of the deposited data

How the results depend on the processing

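No paired analysis was possible because each antibody had a single library, and no replicate could be left out. Of 45 alternative values, 26 lay inside the main interval (for the median length, within 1.5 times) and 19 moved. With the better-ranked 50% of the regions, and with the best 20% of the whole SP1 list, the H3K27ac overlap was 22.0% and 9.55% and the joined share 63.6% and 17.2%, and the better-ranked 50% had a median length of 1449 bases. The best 20% had 8.28% at gene ends and 15.7% on chromosome 19. Without regions over 100 kb from a gene end the H3K27ac overlap was 5.82%. It was 5.32% when regions at rRNA genes or mitochondrial pseudogenes were also left out, a setting added after seeing the data, as were those by length. That setting removed only 1 further region, the one in PCBD2, and did not screen for repeats in general. The share at gene ends was 22.0% with 2500 bases, 26.7% with genes of every kind, 3.39% for regions holding a start, 9.32% by midpoint, 8.20% without chromosome 19 and 9.03% in regions of 1 peak. The share far from genes was 26.7% at 50 kb, 11.9% at 250 kb and 8.05% with genes of every kind. GC boxes as GGGGCGGGG were in 25% of the 8 promoters. Windows and distances move values by construction, and elsewhere the cause was not tested. What depth limits is unknown.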

Other observations

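Some best-ranked regions lay in runs, a pattern seen after the values were known. In 16 places, 3 or more best-ranked regions followed each other at gaps of up to 1 Mb, which took in 78 of the 236 (33.1%). The other 158 lay in no run. Among the next 236 SP1 regions by rank, the same count gave 6 places with 18 regions (7.63%), none with more than 3. Chromosome 19 held 53 of the best-ranked 236 and 21 of the next 236. Its share thus enters this comparison, which was not repeated without that chromosome. The longest run had 12 regions on chromosome 19 between 37305882 and 40663652, from ZNF875 through ACTN4, FCGBP, SERTAD1 and LTBP4 to NUMBL, of which 1 overlapped an H3K27ac region. Further runs of 7 lay on the same chromosome at 5686814 to 8526400, from HSD11B1L to MYO1F, and at 47427568 to 49614545, from SLC8A2 to PRR12, with no overlap. On chromosome 17 a run of 7 at 20801698 to 21817056 reached from LOC124900389 over MAP2K3 to KCNJ18, with 2 overlaps. On chromosome 7, 5 regions within 837 kb (73715727 to 74553204) lay in or nearest to the syntaxin gene STX1A, the tight junction gene CLDN4, METTL27, the translation factor gene EIF4H and GTF2IRD1, with no overlap. On chromosome 1, 5 regions at 25239622 to 26621436 had RSRP1, PDIK1L, CEP85, HMGN2 and RPS6KA1 as nearest genes, again with no overlap. On chromosome 12, 3 regions within 1053 kb were nearest to SP1, GPR84 and the integrin gene ITGA5. Coordinates are hg38.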
